A study of Mus musculus with 12 samples.

Results

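Epididymal fat of adult male mice that met a high-fat diet before birth and through suckling (UL) was compared with that of mice that met it before birth alone (UT). The comparison uses 6 of the 12 RNA pools of the series, UT 1 to 3 and UL 1 to 3, chosen by their diet labels and not by any measured value. What differs by label between these groups is the diet of the suckling period.

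All mice were wild-type male C57BL/6J, an inbred laboratory strain, and were killed at 23 weeks. The high-fat diet, D12451, gave 45% of its energy as fat, and the matched control diet, D12450H, gave 10%. UT mice had the high-fat diet in utero, through the dam, and the control diet from birth on. UL mice had the high-fat diet in utero and during lactation, and the control diet after weaning. Both groups therefore ate the control diet for all of their independent life, and the tissue was taken months after the last exposure. CD mice had the control diet throughout, and WL mice had the high-fat diet from mating until they were killed. Each group was profiled as 3 pools made from 12 mice, and total RNA was extracted from about 22 mg of fat pad. The labels do not say which mice or litters entered which pool, so p-values measure the spread between these pools, which may share litters. Nothing in the labels ties UT and UL mice to the same dams or says how the diet was changed at birth.

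MicroRNAs are RNAs of about 22 bases that guide a silencing complex to messenger RNAs. Most of the pairing is made by the seed, bases 2 to 8 of the mature strand, so that microRNAs with the same seed share many targets. Each is cut from a hairpin, which yields a 5p and a 3p arm, and one arm is usually kept in greater amount than the other. In white fat, microRNAs act on the formation of adipocytes, on lipid storage and on insulin signalling. The epididymal pad lies against the epididymis and testis, and besides adipocytes it holds endothelial, stromal and immune cells. Suckling is the period in which much of a mouse's white fat is formed and in which the pup feeds on milk alone.

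The abundance of each microRNA was read by quantitative PCR as a threshold cycle (Ct), the cycle at which its signal crosses a set level. A later Ct means less RNA, and a difference of 1 cycle is a doubling if amplification is complete. The relative level used here is the mean Ct of a pool over the 466 microRNAs measured in all 12 pools minus the Ct of the microRNA. It is on a log2 scale, and 0 is the level of the average microRNA of that pool. Levels of different assays are not on a common molar scale, so groups were compared within an assay.

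The sequences of microRNAs on which the results turn are shown first, since the seed decides which of them form families and which stand alone. They are RefSeq sequences of mouse build GRCm38.p6, matched by name (393 of 504 assays matched), written 5′ to 3′ with the seed in capitals. The first set holds miR-98-5p and the let-7 members it is set against, which share the seed GAGGUAG.
miR-98-5p: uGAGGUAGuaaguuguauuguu
let-7a-5p: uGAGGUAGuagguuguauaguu
let-7b-5p: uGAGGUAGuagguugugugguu
miR-98-5p lies at chrX:151913229-151913250 on the plus strand, within the span of Huwe1, a ubiquitin ligase gene. Counted without gaps, it differs from let-7a-5p at 2 of 22 positions and from let-7b-5p at 3 of 22, and in neither case within the first 8.

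The next set holds the epithelial microRNAs. In it, 1 base separates the seed of miR-141-3p and miR-200a-3p (AACACUG) from that of miR-200b-3p and miR-200c-3p (AAUACUG), and miR-205-5p has a seed of its own.
miR-141-3p: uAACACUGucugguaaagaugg
miR-200a-3p: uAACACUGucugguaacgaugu
miR-200b-3p: uAAUACUGccugguaaugauga
miR-200c-3p: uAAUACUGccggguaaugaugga
miR-205-5p: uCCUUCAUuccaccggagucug
miR-141-3p (chr6:124717917-124717938) and miR-200c-3p (chr6:124718324-124718346) come from one locus on the minus strand. The locus of miR-200a-3p (chr4:156054911-156054932) and miR-200b-3p (chr4:156055685-156055706) is on another chromosome. miR-205-5p (chr1:193507503-193507524) lies within the span of its noncoding host gene Mir205hg.

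The last set holds microRNAs with large differences whose seeds are unlike one another.
miR-184-5p: cCUUAUCAcuuuuccagccagc
miR-377-5p: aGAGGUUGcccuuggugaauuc
miR-379-3p: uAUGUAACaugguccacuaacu
miR-295-3p: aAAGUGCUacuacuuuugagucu
miR-592-3p: uCAUCACGuggugacgcaacau
miR-758-5p: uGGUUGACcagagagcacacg
miR-676-3p: cCGUCCUGagguuguugagcu
miR-184-5p (chr9:89802302-89802323, minus strand) lies in the span of no annotated gene other than its own. miR-377-5p (chr12:109740515-109740536), miR-379-3p (chr12:109709102-109709123) and miR-758-5p (chr12:109712823-109712843) belong to the imprinted Dlk1-Dio3 region, whose microRNAs are expressed from the maternal chromosome. miR-592-3p (chr6:27936672-27936693) lies within the span of the glutamate receptor gene Grm8, and miR-676-3p (chrX:100381151-100381171) within that of Eda, which encodes ectodysplasin. miR-363-5p, miR-676-5p and miR-126a-5p are discussed by name only.

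The 6 pools gave Ct values from 15.05 to 36.05. Of the 504 microRNAs, 481 were measured in all 6 pools, and 25 values were missing in UT (14 of them in UT 2) against 2 in UL. UT pools varied more among themselves than UL pools. The standard deviation of a pool's levels around its group mean was 0.62, 0.85 and 0.78 cycles in UT 1 to 3 and 0.44, 0.41 and 0.39 in UL 1 to 3, without overlap. The 3 values of a group share 1 group mean, so they are not independent and give no valid test of the difference. The median standard deviation of a single microRNA within its group was 0.53 in UT and 0.39 in UL. The reference RNA RNU-43 stood at 6.96, 6.89 and 6.37 in UT 1 to 3 and at 6.84, 7.03 and 7.48 in UL 1 to 3. Its difference was 0.38 (two-sided exact permutation test, p = 0.3, where 0.1 is the smallest that 3 pools against 3 allow). U6, missing in UT 1, differed by -0.05. Pool WL 3 stands apart from WL 1 and WL 2, with a deviation of 0.97, and it bears on the comparison because the fit takes its spread from all 12 pools.

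No microRNA differed between UL and UT after adjustment over the 504 tested (limma, one model of the 4 groups, Benjamini-Hochberg threshold 0.05), so the share called was 0%. The smallest adjusted p was 0.0607. The count depends on single pools, also of the other groups: it was 8 without WL 3, 4 without WL 2, 1 without CD 1 and 1 without UL 1, and 0 without any of the other 8 pools in turn. With UT and UL pools alone in the fit it was 5, of which 4 are the paired assays described further on and the other is miR-184-5p. Without adjustment 40 microRNAs (7.94%) had p under 0.05 (26 without UL 1 and 26 without UL 3), of which 19 (3.77%) were higher and 21 (4.17%) lower in UL. That split depends on the scale: it was 30 higher and 12 lower with the median Ct in place of the mean, 8 and 39 with RNU-43, 11 and 33 with uncentred Ct and 24 and 15 with the deposited normalized ratios. The median difference over all 504 was -0.03 cycles, with quartiles at -0.34 and 0.30, and the median standard error was 0.44. A difference of over 1 cycle was seen for 60 microRNAs, 35 higher and 25 lower in UL. Among the 481 measured in all 6 pools the ranges of the groups did not overlap for 64 (13.3%), with every UL pool above every UT pool for 23 (4.78%) and below for 41 (8.52%).

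**Figure D1:**
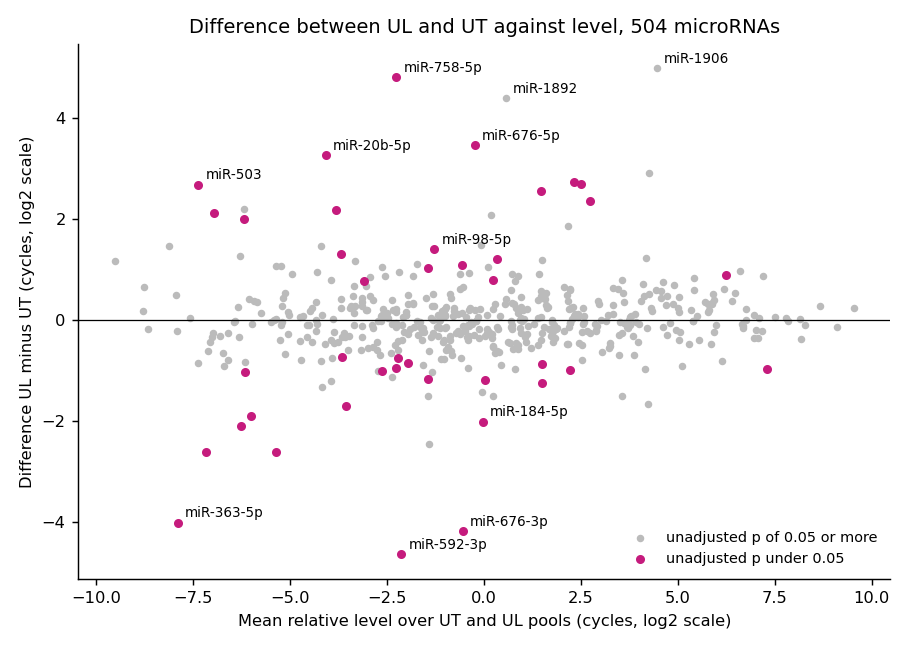
Difference UL minus UT (cycles, log2 scale) against the mean relative level over the UT and UL pools (cycles, log2 scale) for 504 microRNAs, 1 point each. Magenta points are the 40 with unadjusted p under 0.05, none of which passed adjustment; most points lie within 1 cycle of 0, and miR-1906 and miR-1892 owe their place to 1 UT pool.

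Among single microRNAs, miR-184-5p, the minor arm of a hairpin known from cornea and lens, gave one of the cleanest separations. Its level was 1.25, 0.88 and 0.82 in UT 1 to 3 and -0.67, -1.49 and -0.95 in UL 1 to 3. The UT pools were all high and the UL pools all low, and CD 1 to 3 at -1.28, -1.90 and -1.37 lay with UL. The difference was -2.02 cycles (SE 0.43, 95% interval -2.96 to -1.08, limma adjusted p = 0.0732), 4.05-fold if each cycle doubles. Its Ct lay between 23.38 and 26.46 in the 6 pools, well inside the measured range. miR-184-5p passed the threshold in 6 of 33 alternative settings, at adjusted p from 0.00742 to 0.394 over all of them. One of these leaves out WL 3 (adjusted p = 0.00742), the WL pool nearest to UT at -0.07, and another leaves out WL 2 (0.0367).

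miR-98-5p, an X-linked member of the let-7 family, was lower in each UT pool than in any UL pool. Its level was -2.16, -1.43 and -2.35 in UT 1 to 3 and -0.16, -0.99 and -0.62 in UL 1 to 3. The CD pools stood at -0.48, -0.76 and -0.41, and WL pools at -0.23, -0.25 and -0.23. The difference was 1.39 cycles (SE 0.33, 95% interval 0.68 to 2.11, limma adjusted p = 0.124), or 2.62-fold. The opposite arm, miR-98-3p, was late in the PCR and differed by 1.16 (SE 0.65), with overlapping ranges. let-7f-2-3p, which also lies within the span of Huwe1, differed by 0.52.

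The other 8 members with the same seed as miR-98-5p differed by -0.39 (let-7c-5p) to 0.60 (let-7d-5p), and their UT and UL ranges overlapped. let-7a-5p stood at 7.51, 7.45 and 7.45 in UT and at 7.80, 7.51 and 7.23 in UL. let-7b-5p stood at 9.07, 7.52 and 8.44 in UT and at 8.43, 8.28 and 7.98 in UL. These 8 let-7 microRNAs, which repress growth and insulin-signalling genes, thus differed by less than 1 cycle between the groups. Ranges were apart for 1 of the 9 members of the family, miR-98-5p (11.1%, against 13.3% of all microRNAs). The difference between miR-98-5p and its relatives was not itself tested, nor was cross-detection between assays for sequences this close.

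miR-363-5p, the minor arm of the last hairpin of the X-linked miR-106a to miR-363 cluster, was higher in each UT pool than in any UL pool. Its level was -5.72, -7.22 and -4.73 in UT 1 to 3 and -8.39, -11.08 and -10.26 in UL 1 to 3. The UL Ct values of 33.35, 36.05 and 35.13 are at the late end of the measured range. The difference was -4.02 cycles (SE 0.77, limma adjusted p = 0.0607). Its opposite arm miR-363-3p differed by -0.57 (limma unadjusted p = 0.258). miR-363-5p passed the threshold without UL 1 (adjusted p = 0.0357), without WL 2 (0.0367) and without WL 3 (0.0252).

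Other members of the 24 microRNAs with the smallest p were placed alike. miR-377-5p stood at -7.14, -7.70 and -6.74 in UT 1 to 3 and at -5.83, -4.85 and -4.93 in UL 1 to 3, a difference of 1.99 (SE 0.55, limma adjusted p = 0.238), and passed without WL 3 (0.0201). miR-379-3p stood at -4.50, -6.12 and -4.98 in UT and at -7.92, -6.92 and -7.09 in UL, a difference of -2.11 (SE 0.64, adjusted p = 0.322). Both lie in the Dlk1-Dio3 region and are minor arms, and their differences have opposite signs. miR-539, from the same region, differed by 2.17, miR-329-5p by -0.97 and miR-409 by -0.89. In WL 3 miR-377-5p, at -7.32, and miR-379-3p, at -5.13, again lay with UT.

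The endothelial hairpin miR-126a, which lies within Egfl7, had arms that differed in opposite directions. miR-126a-5p stood at 7.80, 7.56 and 8.02 in UT 1 to 3 and at 6.50, 6.67 and 7.25 in UL 1 to 3, all UL pools below (difference -0.99, SE 0.35, limma adjusted p = 0.512). miR-126a-3p, the better known arm, stood at 6.01, 7.22 and 7.05 in UT and at 7.43, 7.89 and 7.53 in UL, all UL pools above (difference 0.86, SE 0.46, adjusted p = 0.663). Neither passed the test. The arms come from 1 transcript, and as a list their median was -0.06.

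**Figure D2:**
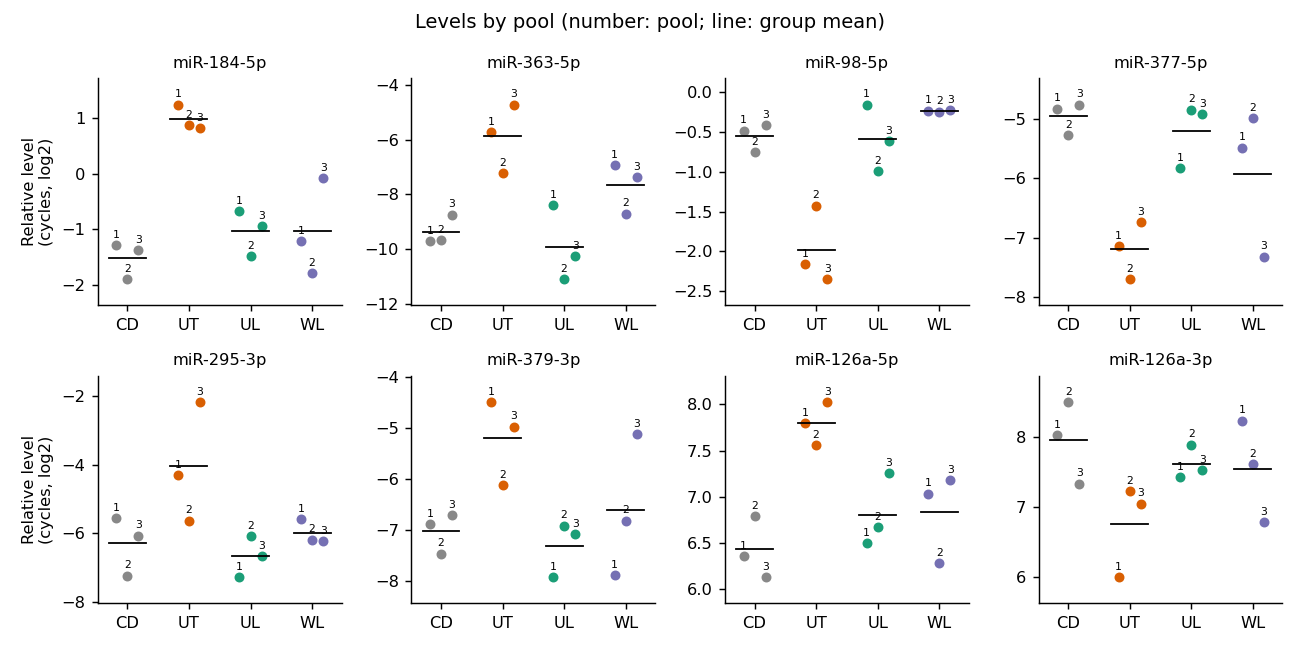
Relative level (cycles, log2 scale) of 8 microRNAs in the 12 pools, by group; each point is a pool with its number, and each line is the group mean of 3 pools. In each panel the 3 UT and 3 UL points do not overlap, and the CD mean lies nearer the UL mean than the UT mean in all 8 panels. Of the 24 microRNAs with the smallest p this held for 21. It did not hold for miR-503, miR-216b-3p and miR-20b-5p, which are not shown.

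The remaining microRNAs of the 24 are given by what they are known for. miR-503, processed with miR-322 and acting on cell-cycle genes, differed by 2.67 (SE 0.90), but its UT 3 level of -7.47 and UL 3 level of -7.48 met. miR-101a-3p, whose known targets include the mTOR gene, stood at -0.07, 0.12 and -0.83 in UT and at 1.76, 0.77 and 0.28 in UL (difference 1.20, SE 0.46). miR-295-3p, an embryonic stem cell microRNA, stood at -4.30, -5.64 and -2.19 in UT and at -7.27, -6.08 and -6.66 in UL (difference -2.63, SE 0.74, limma adjusted p = 0.25). miR-290a-5p of the same cluster differed by -0.86, and miR-216b-3p, a microRNA of the pancreas, by -2.63. The low group was late in the PCR for miR-503 (mean level -8.70 in UT) and miR-216b-3p (-8.48 in UL, standard deviation 1.89). Means were also low for miR-377-5p in UT (-7.19) and miR-379-3p in UL (-7.31). miR-683 differed by -1.17 and miR-346-3p, within the glutamate receptor gene Grid1, by -0.99.

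Over these 24, all UL pools lay above all UT pools for 8 and below for 12. These 24 were chosen by their p in this comparison, so these counts describe the choice and carry no test. The mean of CD was nearer to UL than to UT for 21 of 24, against 64.9% of all 504 microRNAs. The mean of WL was nearer to UL for 21 of 24, against 61.1%. Since the 24 were picked where UT and UL differ, and CD and WL share the fit, these proximities are a description. Of the single WL pools, WL 3 was nearer to UT for 11 of 24 (45.8%), close to its share of 44.2% over all microRNAs. WL 1 was nearer to UT for 4 (16.7%, against 39.1%) and WL 2 for 0 (against 33.9%).

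In 4 assays the levels of UT 1 to 3 and WL 3 lay apart from those of the other 8 pools with no overlap, in 2 pairs of opposite sign. miR-592-3p stood at 0.57, -0.02 and 0.01 in UT 1 to 3 and at 0.46 in WL 3, and at -4.85, -4.00 and -4.55 in UL 1 to 3. miR-758-5p stood at -4.24, -4.67 and -5.06 in UT and at -4.48 in WL 3, and at 0.35, -0.15 and 0.23 in UL. In UT and WL 3 each assay thus took the place that its partner has in the other pools. The mean of miR-592-3p over UT and WL 3 (0.26) lay 0.18 from the mean of miR-758-5p over the other 8 pools, and the mean of miR-758-5p lay 0.25 from that of miR-592-3p.

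The arms of the miR-676 hairpin did the same. miR-676-3p stood at 1.51, 1.70 and 1.44 in UT 1 to 3 and at 1.04 in WL 3, and at -3.17, -2.22 and -2.54 in UL 1 to 3. miR-676-5p stood at -2.19, -2.44 and -1.28 in UT and at -2.40 in WL 3, and at 1.24, 1.56 and 1.64 in UL. The gaps to the partner's mean in the other 8 pools were 0.09 and 0.42. In the fit, miR-592-3p differed by -4.65 cycles, with an SE of 1.12 and a limma adjusted p of 0.127. miR-758-5p differed by 4.80 (SE 0.96, adjusted p = 0.0607). These are the extreme differences of the whole comparison apart from miR-1906. For the 3p arm of miR-676 the difference was -4.19 (SE 0.79, adjusted p = 0.0607), and for its 5p arm 3.45 (SE 0.86, adjusted p = 0.139). If the values of each pair are exchanged in UT 1 to 3 and WL 3, the differences in the same order become 0.19, -0.04, -0.67 and -0.07. Without WL 3 all 4 passed the threshold at adjusted p of 0.000198 or less, and without WL 2 miR-676-3p and miR-758-5p did (0.0367 each). Whether the deposited values were exchanged was not tested, and the differences of these 4 assays depend on it. The opposite arms, miR-592-5p and miR-758-3p, differed by -0.47 and 0.13.

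**Figure D3:**
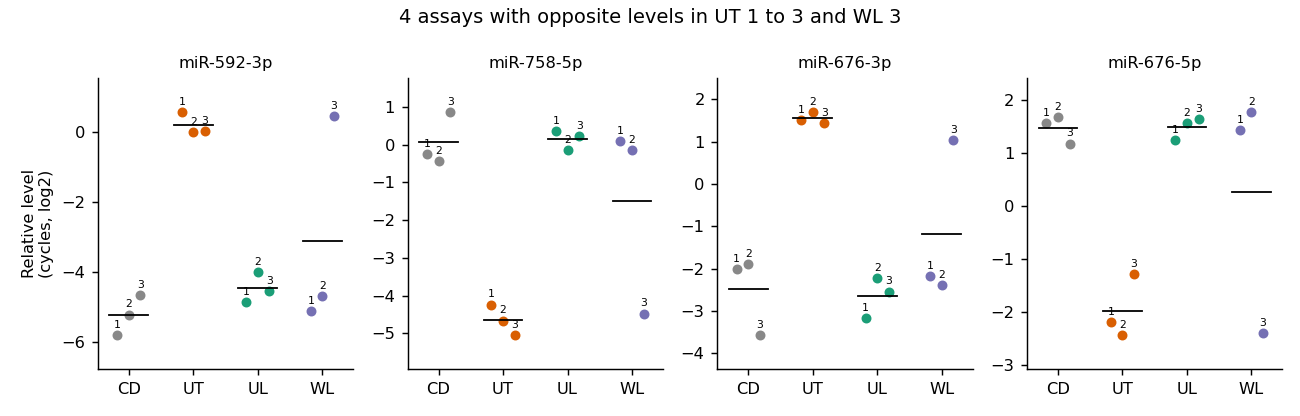
Relative level (cycles, log2 scale) of miR-592-3p, miR-758-5p, miR-676-3p and miR-676-5p in the 12 pools, by group; each point is a pool with its number, and lines are group means. UT 1 to 3 and WL 3 lie apart from the other 8 pools in every panel, in opposite directions within each pair.

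Hairpins were next compared by arm. Of 101 hairpins with both arms measured in 3 pools of each group, the arms differed in the same direction for 57 and in opposite directions for 44. Both arms differed by over 1 cycle for miR-98, in the same direction, and for miR-676, in opposite directions. Other arms of the microRNAs above were closer to 0: miR-377 differed by 0.40, miR-379 by 0.43, miR-329-3p by 0.13, miR-101a-5p by -0.03 and miR-346-5p by -0.48.

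The microRNAs were then grouped into 26 lists, by function, by cell of origin and by genomic cluster. No member of any list passed the adjusted threshold, so lists are described by counts and medians beside the median of -0.03 over all 504. Counts of members higher or lower are to be read against all 504, of which 235 were higher and 269 lower in UL. List medians ran from -0.65 to 1.52, as the plot of list members shows.

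**Figure D4:**
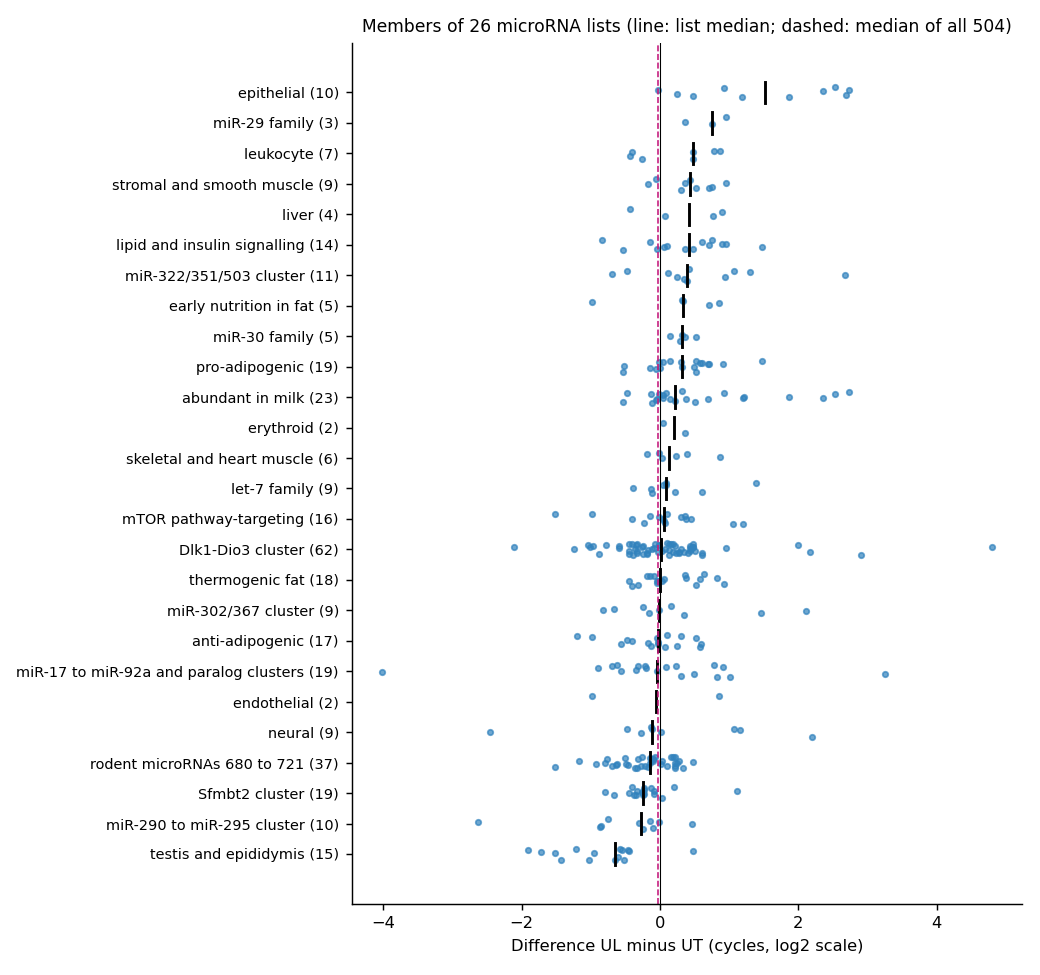
Difference UL minus UT (cycles, log2 scale) of each measured member of 26 microRNA lists; each point is a microRNA, the black line is the list median, the dashed line is the median of all 504 (-0.03) and the number of members is in brackets. Epithelial microRNAs lie highest (median 1.52) and testis and epididymis microRNAs lowest (median -0.65).

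Epithelial microRNAs had the highest median, 1.52, and 9 of the 10 measured were higher in UL. miR-200a-3p and miR-200c-3p of the miR-200 family, which keeps epithelial cells from changing to a mesenchymal state, and miR-205-5p of the skin and glands are among the 24 above. miR-200a-3p stood at -0.34, 1.49 and -0.54 in UT 1 to 3 and at 3.14, 1.95 and 3.13 in UL 1 to 3 (difference 2.54, SE 0.77, limma adjusted p = 0.322). miR-205-5p stood at 0.24, 2.84 and 0.42 in UT and at 4.57, 3.17 and 3.81 in UL (difference 2.68, SE 0.94, adjusted p = 0.512). UT 2 was the high UT pool in both and UL 2 the low UL pool.

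UT 2 was likewise the high UT pool and UL 2 the low UL pool for miR-141-3p, miR-200c-3p and miR-200b-3p, but not for miR-429, whose UT 2 level was the lowest of UT. miR-141-3p stood at -0.41, 3.33 and -0.02 in UT and at 4.68, 2.70 and 3.71 in UL (difference 2.73, SE 1.22), and miR-200c-3p at 0.70, 3.05 and 0.92 in UT and at 4.48, 2.90 and 4.35 in UL (difference 2.35, SE 0.89). In both, UT 2 lay above UL 2. miR-200b-3p differed by 1.86 and miR-429 by 1.18, with overlapping ranges, and miR-203-3p of the epidermis by -0.02. Ranges did not overlap for 2 of the 9 members measured in all 6 pools, 22.2% against 13.3% of all microRNAs.

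The spread within groups was wide. The mean level over the 9 complete members was 0.20, 1.46 and 0.67 in UT 1 to 3, 2.45, 1.97 and 2.75 in UL, 3.21, 1.22 and 2.90 in CD and 1.44, 3.15 and 2.15 in WL. Pools of low epithelial microRNA thus include CD 2 and WL 1 besides UT, and CD 2 lay below UT 2. The list median ran from 1.08 to 2.11 over the 30 settings in which it was computed, never changing sign. In pooled tissue, fewer epithelial cells and less microRNA per cell cannot be told apart, and the cells that these microRNAs came from were not measured.

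**Figure D5:**
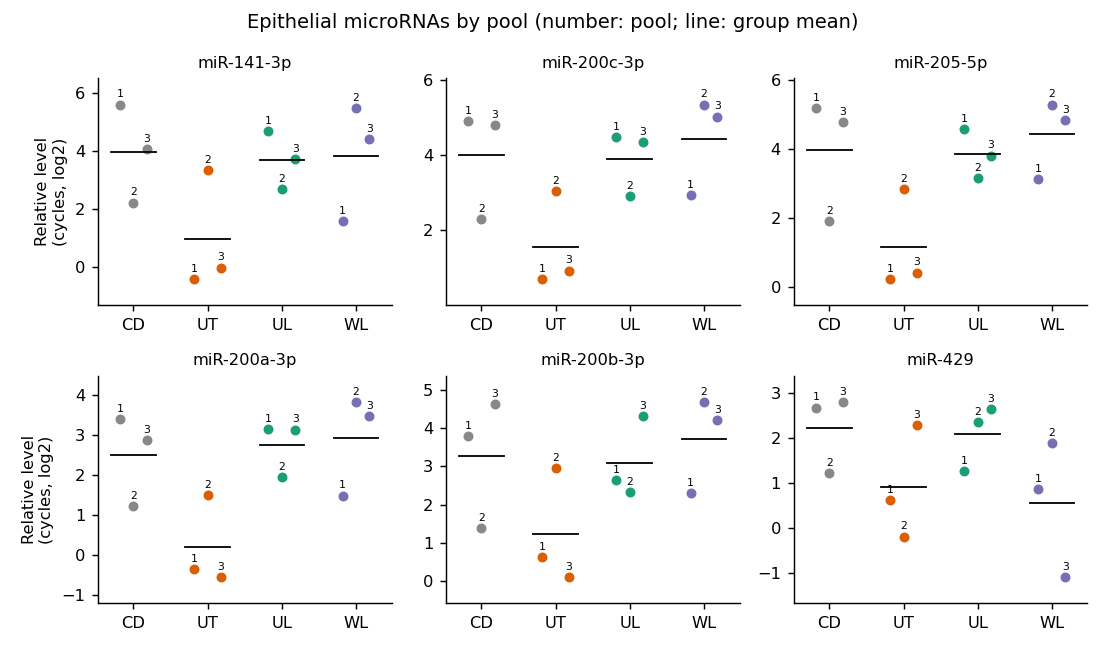
Relative level (cycles, log2 scale) of 6 epithelial microRNAs in the 12 pools, by group; each point is a pool with its number, and lines are group means. UT 1 and UT 3 are low for the 4 miR-200 and miR-141 assays and miR-205-5p, and UT 2 lies above both, while for miR-429 UT 2 is the lowest UT pool.

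Testis and epididymis microRNAs had the lowest median, -0.65, with 14 of the 15 measured lower in UL. The mean level of the 15 was -0.27, -0.02 and -1.35 in UT 1 to 3 and -1.44, -1.17 and -1.66 in UL 1 to 3, so that UT 3 lay within the range of UL and the other UT pools above. The CD pools stood at -1.66, -0.70 and -1.72 and the WL pools at -1.38, -1.56 and -1.89. miR-463 stood at -2.64, -1.75 and -3.73 in UT and at -4.80, -3.85 and -4.62 in UL, and miR-471 at -4.70, -4.77 and -5.72 in UT and at -6.72, -7.04 and -7.15 in UL. They are shown as the 2 of the 15 with limma unadjusted p under 0.05, both lower in UL (4.17% of all microRNAs were). The 3 members of highest level had overlapping ranges. miR-742-3p, the highest and the 1 member higher in UL, stood at 5.14, 4.53 and 3.75 in UT and at 5.24, 5.06 and 4.54 in UL (difference 0.47, SE 0.43). miR-34b-5p and miR-34c-5p, known from germ cells and ciliated cells, differed by -0.58 and -0.46.

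Ranges of the testis and epididymis list did not overlap for 4 of 15, all lower in UL (26.7%, against 8.52% of all microRNAs with every UL pool below). The median was -1.34 without UT 3. The epithelial and the testis and epididymis microRNAs differ in opposite directions, and their part in the other differences was not tested. Leukocyte microRNAs had a median of 0.47 (-0.01 without UT 1), with miR-142-3p at 0.78, miR-150-5p at 0.47 and miR-146a-5p at -0.27, and pool means of 1.06 to 1.78 in UT and 1.54 to 1.94 in UL. Muscle microRNAs had a median of 0.13 and erythroid microRNAs 0.20 (-0.25 and -0.18 with RNU-43 in place of the mean), with miR-499-5p at -0.02, miR-133a-3p at 0.03, miR-133b at -0.19, miR-451a at 0.36 and miR-486 at 0.04. Liver microRNAs had a median of 0.42, with 3 of 4 higher in UL. miR-122-5p was at 0.90, miR-192-5p at 0.76, miR-194-5p at 0.07 and miR-215 at -0.44.

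Stromal and smooth muscle microRNAs had a median of 0.44, and 7 of 9 were higher in UL. miR-143-3p, which favours adipocyte formation and is also strong in smooth muscle, stood at 3.72, 4.15 and 3.40 in UT and at 5.04, 3.80 and 4.55 in UL (difference 0.71, SE 0.36, limma adjusted p = 0.657). Its cluster partner miR-145a-5p differed by -0.17. The miR-29 family, which restrains collagen genes and insulin signalling, was higher in UL in 3 of 3 members, by 0.36 (miR-29a-3p), 0.75 (miR-29b-3p, without UT 1) and 0.96 (miR-29c-3p), with overlapping ranges in the 2 measured in all 6 pools.

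Lists tied to fat cells and to milk showed small differences. Of the 19 pro-adipogenic microRNAs 13 were higher in UL, with a median of 0.32 that turned to -0.06 with RNU-43 in place of the mean. The abundant miR-21a-5p differed by -0.02, miR-26a-5p by 0.04 and miR-26b-5p by -0.002, while miR-107-3p, whose targets include caveolin, differed by 1.48 with an SE of 0.79. The anti-adipogenic list had a median of -0.03, with 7 of 17 higher and miR-27a-3p at 0.57, and the thermogenic list a median of 0.01, with 9 of 18 higher and miR-196a-5p at 0.58. MicroRNAs of lipid and insulin signalling had a median of 0.42, with 10 of 14 higher in UL, and the 5 assays known from early nutrition one of 0.33.

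Of the 23 microRNAs abundant in milk, 16 were higher in UL, with a median of 0.22 that turned to -0.16 with RNU-43 in place of the mean. The 4 of these with unadjusted p under 0.05, all higher in UL (3.77% of all microRNAs were), are miR-141-3p, miR-200a-3p, miR-200c-3p and miR-101a-3p, of which the first 3 are also on the epithelial list. miR-148a-3p, a leading milk microRNA, stood at 4.59, 4.76 and 4.31 in UT and at 6.15, 5.11 and 4.46 in UL (difference 0.69, SE 0.50), with overlapping ranges. The 3 milk microRNAs of highest level, let-7b-5p, miR-21a-5p and miR-26a-5p, differed by -0.11, -0.02 and 0.04, and let-7a-5p by 0.04. Others of high level differed by more, among them miR-99a-5p by 0.38 and miR-30d-5p by 0.32.

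The mTOR kinase is a sensor of nutrients and insulin that the study's title names. Of 16 microRNAs known to act on its pathway 10 were higher in UL, with a median of 0.06 (-0.31 with RNU-43). Of the 16, 1 had limma unadjusted p under 0.05 (miR-101a-3p), against 7.94% of all microRNAs. miR-99a-5p, which targets the mTOR gene, differed by 0.38, and miR-16-5p by -0.23. miR-99b-5p stood at 3.93, 3.91 and 6.09 in UT 1 to 3 and at 3.83, 3.60 and 3.56 in UL 1 to 3, with UT 3 alone far above. It is 1 of the 2 list members whose ranges did not overlap, 12.5% of the list against 13.3% of all microRNAs.

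Genomic clusters gave the rest. The cluster of miR-322, miR-351 and miR-503, which acts on cell division, had 9 of 11 members higher in UL and a median of 0.39. miR-351-5p stood at -1.10, -1.44 and -0.77 in UT and at -0.28, 0.02 and 0.17 in UL (difference 1.07, SE 0.48). Its opposite arm miR-351-3p, the member of highest level, differed the other way, at 3.26, 3.75 and 4.48 in UT and 3.41, 2.63 and 3.37 in UL (difference -0.69, SE 0.35), and miR-322-5p differed by 0.12. miR-351-5p shares the seed CCCUGAG with miR-125a-5p and miR-125b-5p, shown to make the common seed visible, and these differed by 0.59 and 0.87.
miR-351-5p: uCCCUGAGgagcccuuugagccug
miR-125a-5p: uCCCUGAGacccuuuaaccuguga
miR-125b-5p: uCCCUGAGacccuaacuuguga
All 3 members of this seed group were higher in UL, and none passed the test.

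The miR-290 to miR-295 cluster, active in embryonic stem cells, had 9 of 10 members lower in UL and a median of -0.27. All UL pools lay below all UT pools for 4 of the 9 members measured in the 6 pools (44.4%, against 8.52% of all microRNAs). The median turned to 0.14 when the deviation of neighbouring assays in the table was subtracted. The 3 members of highest level, miR-291a-5p, miR-294-3p and miR-293-3p, differed by -0.30, -0.01 and -0.14. The Sfmbt2 list of rodent repeats had 16 of 19 lower and a median of -0.25, with no member whose ranges were apart. It took every miR-297, miR-466, miR-467 and miR-669 assay by name, so it is wider than the Sfmbt2 cluster. Of its members miR-466j lies on chromosome 10, miR-466k on 3, miR-467f on 11, miR-467g on 5 and miR-467h on 9. The mean level of the 18 members measured in all 12 pools was 0.40, 1.11 and -0.50 in UT 1 to 3 and 0.20, 0.12 and 0.03 in UL 1 to 3, so UT 3 lay below every UL pool and the other UT pools above. The median turned to 0.04 without UT 2 and to 0.07 with neighbouring assays subtracted. miR-669c-5p, miR-466j and miR-466f, the members of this list of highest level, differed by -0.37, -0.09 and -0.33. The lists of the miR-17 to miR-92a clusters, the miR-302 cluster, neural microRNAs and a group of rodent-specific microRNAs had medians of -0.04, -0.02, -0.11 and -0.14. In the first, miR-93-5p, miR-92a-3p and miR-106b-5p differed by 0.82, 0.50 and -0.31. In the miR-302 cluster 4 of 9 were higher in UL, with differences from -0.82 to 2.11. Its members of highest level, miR-302d-5p, miR-302c-5p and miR-302c-3p, differed by -0.15, -0.25 and -0.82. Of the neural list 4 of 9 were higher in UL, with differences from -2.46 to 2.19. Its members of highest level, miR-124-3p, miR-129-5p and miR-128-3p, differed by -0.11, -0.47 and -0.27. Of the rodent-specific list 24 of 37 were lower in UL, and its members of highest level, miR-712-5p, miR-690 and miR-714, differed by 0.22, -0.14 and 0.27. The Dlk1-Dio3 list was balanced in direction, with 31 of 62 higher, a median of 0.01, and miR-667-3p, miR-770-3p and miR-341-3p at -0.36, -0.25 and -0.04. Of the 62, 9 had limma unadjusted p under 0.05, 3 higher and 6 lower in UL, against 7.94% of all microRNAs. All UL pools lay above all UT pools for 6 and below for 7 of the 61 measured in all 6 pools (21.3%, against 13.3% of all microRNAs). Both counts include miR-758-5p, 1 of the 4 paired assays. The miR-30 family was higher in UL in 5 of 5 members, by 0.14 (miR-30a-5p), 0.32 (miR-30d-5p) and 0.52 (miR-30c-5p) in the 3 of highest level, with overlapping ranges. Its median turned to -0.06 both with RNU-43 and without UL 1. The scale shifts all microRNAs at once: with RNU-43 in place of the mean the median over all 504 was -0.41 and with uncentred Ct -0.22, so the list medians are to be read against these.

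Some large differences rest on 1 pool or on missing values. miR-1906 stood at 7.11, -6.89 and 5.66 in UT 1 to 3 and at 6.60, 6.95 and 7.26 in UL, and miR-1892 at 3.04, -10.59 and 2.65 in UT and at 2.83, 2.75 and 2.66 in UL. In both, the fitted differences of 4.98 (SE 2.67) and 4.38 (SE 2.68) come from UT 2. In 4 assays, miR-20b-5p, miR-494, miR-291b-5p and miR-206-5p, UT had 1 measured pool. miR-20b-5p, a relative of miR-17-5p with the seed AAAGUGC, stood at -6.53 in UT 3 and at -3.74, -2.85 and -3.23 in UL 1 to 3, and passed without WL 3 (limma adjusted p = 0.0252). miR-494 stood at 2.07 in UT 3 and at 4.96, 5.15 and 4.83 in UL, and passed without CD 1 (adjusted p = 0.0434). In CD it ran from -9.48 to -0.31.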

How the data were processed

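MicroRNA levels were measured by quantitative PCR in 12 pools of epididymal fat. The Ct values deposited by the authors were used. A second table holds normalized values that, per the file headers, are relative amounts, read here as a ratio; the deposited ratio of a pool grows with Ct, to within 0.01 on the log2 scale, so its direction is opposite to its header and it served as an alternative only. The deposited fold-change ratios of the authors were not used. No source used here gives the instrument software or the Ct threshold.

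Of 507 assay rows, 1 duplicate was dropped, leaving 504 microRNAs and 2 reference RNAs. Levels are the mean Ct of a pool over 466 microRNAs minus Ct. Missing Ct stayed missing. A filter of Ct under 35 in at least 3 pools removed 0. limma 3.58.1 (R 4.3.3; lmFit, eBayes) fitted 1 model of 4 groups over 12 pools, two-sided, with Benjamini-Hochberg adjustment, and was tested on simulated data. The RNU-43 level used an exact permutation test. Text names the 24 smallest p, in each list the 3 members of highest level, opposite arms of the 24, and assays with under 2 pools in a group. Other named microRNAs (the let-7 and miR-200 relatives, miR-107-3p, miR-125b-5p, miR-148a-3p, miR-99b-5p, miR-463, miR-471, miR-1892 and miR-1906) were chosen after their values were seen. The members and the lists were chosen with earlier results of these data known. Alternatives covered centring, filters, missing values, weights, the replicate block and each pool left out. PCR values carry no read depth, so the number of pools limits the precision.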

Additional observations from a re-analysis of the deposited data

How the results depend on the processing

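For UL minus UT the count past the threshold was 0, and 22 of 33 settings (30 planned, 3 chosen after seeing the data) gave no call. It was 4 with RNU-43 in place of the mean, 5 with U6, 2 with no centring, 5 with UT and UL pools only, 7 with array weights and 1 with WL 3 left out and the 4 assays exchanged. Leaving out 1 pool gave 0 to 8 calls, with 8 without WL 3, 4 without WL 2, 1 without CD 1 (miR-494) and 1 without UL 1 (miR-363-5p). With the assays exchanged, miR-758-5p was -0.04, miR-592-3p was 0.19 and miR-676-5p was -0.07, so their directions reversed; the cause was not tested. The count under an unadjusted p of 0.05 went from 40 to 26 without UL 1 or UL 3. The same replicate number did not pair the pools: correlations of same-numbered deviations were 0.15, -0.21 and 0.16, and the replicate block gave 1 call, miR-363-5p (limma adjusted p = 0.0275). The epithelial and testis and epididymis medians kept their signs in all 30 settings in which list medians were computed. They were not alone in this: lipid and insulin signalling, liver, and stromal and smooth muscle were among other lists that did so. The settings reuse the same pools, so they are not independent of one another. RNU-43 centring moved the median of all microRNAs from -0.03 to -0.41.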
